A study of Mus musculus with 5 samples.

Results

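The genes described here are 31 targets of the hypoxia response that lie outside glycolysis. They were listed by name as known targets, with earlier results of these data known, and no threshold on the values was applied. Each was matched through the GRCm38 gene annotation to 1 Ensembl gene of the 54100 in the count table. By role they comprise 6 genes of mitophagy and mitochondria, 2 of endoplasmic reticulum oxidation and lipid droplets, and 3 brakes on growth. The others are 6 collagen-modifying enzymes, 4 secreted factors, 2 carbonic anhydrases and 8 genes grouped under transcription and chromatin. All but Stc2 reached a mean of 1 CPM (the usual scaling of counts to library size, here with TMM factors) over the 5 libraries, so 30 of 31 could be measured.

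Cells sense oxygen through prolyl hydroxylases (Egln1 to Egln3), which mark the α subunits of the hypoxia-inducible factors HIF-1 and HIF-2 for destruction by the Vhl ubiquitin ligase. When oxygen or hydroxylase activity is low, the α subunit pairs with Arnt and binds a short DNA core, ACGTG or GCGTG, near genes for glycolysis, mitochondrial turnover, acid export, matrix crosslinking and vessel growth. Most of this control acts on the HIF-1α protein, so the level of Hif1a mRNA is only an indirect measure of HIF-1 activity. In solid tumours, melanoma included, several of these targets are widely used as markers of poorly oxygenated regions.

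The series holds 5 poly(A) RNA-seq libraries of B16F10, a mouse skin melanoma cell line, with 1 library per group. The groups are conventional 3-dimensional culture (conventional 3D below), the study's dynamic suspension culture, a control line (shControl), and lines labelled as HIF-1α knockdown and HIF-1α overexpression. The first 3 carry the genotype label WT, the others "knockdown" and "overexpression", and none was treated. The labels give every group the same growth protocol (serum-free medium, shaking at 60-80 rpm, 37 °C, 5% CO2, 7-10 days), so they record no difference in culture between conventional 3D and dynamic suspension. Each group was repeated 3 times and pooled before sequencing, which leaves 1 value per group, no spread between repeats and no test between conditions. Hairpin and transgene sequences, the promoters that drive them and the number of clones were not stated in the labels. The cells were enriched in bulk, so fewer cells of a type and less RNA per cell cannot be told apart in any value below.

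The targeted gene was examined first. Hif1a stood at 542 CPM in conventional 3D, 390.5 in dynamic suspension, 61.3 in shControl, 95.1 in the line labelled knockdown and 384 in the line labelled overexpression. The library labelled knockdown was thus higher than its control, by a log2 ratio of 0.63 (95% counting interval 0.54 to 0.72), which goes against its label, and it is called "the labelled knockdown" throughout. The values of the first 3 libraries summed to between 59493240 and 61267892 and had the form of estimated counts, and those of the labelled lines summed to 14803426 and 15393189 and had the form of plain counts. Pseudogenes took 3.44 to 4.81% of the first 3 libraries and 0.714 to 0.918% of the labelled lines. Comparisons within each kind of column are therefore given before those across kinds, where the processing and the condition cannot be told apart. That limit also holds for the Hif1a ratio of the labelled knockdown against shControl. All 7 melanocyte markers, among them Mitf, Tyr and Pmel, were present in every library, at summed levels of 14700 to 30823 CPM, which matches the labelled cell type.

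A gene counts as higher or lower below when the log2 ratio of 2 libraries is at least 1 in size, their mean is at least 1 CPM, and the exact 95% interval of the ratio of their counts excludes equality. That interval covers counting error only, because no repeat was sequenced. It takes the estimated counts as counts, and is too narrow where these exceed the fragments sequenced. The share of all measured genes that meet the same rule is given beside each count of hypoxia targets.

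The promoters of the targets that differed most between dynamic suspension and conventional 3D are shown because they carry the DNA core through which HIF acts, or lack it. Each is the 250 bases before the RefSeq start (GRCm38.p6), written 5′ to 3′ on the gene's strand, in order of the size of the difference. Zfp395, which differed more than Fam162a, has no entry in the promoter table used here. Capitals mark ACGTG and GCGTG, or CACGT and CACGC where the core lies on the other strand.
Ankrd37, chr8:45999851-46000100, minus strand: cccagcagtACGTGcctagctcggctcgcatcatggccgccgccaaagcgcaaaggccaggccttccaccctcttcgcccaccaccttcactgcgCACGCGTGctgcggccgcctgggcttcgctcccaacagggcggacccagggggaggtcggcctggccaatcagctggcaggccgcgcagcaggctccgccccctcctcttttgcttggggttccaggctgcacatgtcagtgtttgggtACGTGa
Higd1a, chr9:121857797-121858046, minus strand: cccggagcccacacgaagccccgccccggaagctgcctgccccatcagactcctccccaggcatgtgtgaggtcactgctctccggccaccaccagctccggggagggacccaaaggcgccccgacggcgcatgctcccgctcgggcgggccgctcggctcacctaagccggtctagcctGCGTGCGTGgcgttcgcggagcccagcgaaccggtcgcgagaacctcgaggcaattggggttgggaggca
Hilpda, chr6:29272238-29272487, plus strand: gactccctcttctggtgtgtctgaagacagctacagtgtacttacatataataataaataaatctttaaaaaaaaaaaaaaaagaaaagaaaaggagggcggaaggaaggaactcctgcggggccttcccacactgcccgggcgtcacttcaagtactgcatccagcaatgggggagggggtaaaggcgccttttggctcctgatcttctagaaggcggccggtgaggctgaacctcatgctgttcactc
Car12, chr9:66713436-66713685, plus strand: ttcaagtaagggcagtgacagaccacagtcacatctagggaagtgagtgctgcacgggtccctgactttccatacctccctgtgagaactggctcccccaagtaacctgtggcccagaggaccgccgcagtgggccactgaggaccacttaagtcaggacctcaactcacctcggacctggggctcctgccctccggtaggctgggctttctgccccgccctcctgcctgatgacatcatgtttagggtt
Ero1l, chr14:45318573-45318822, minus strand: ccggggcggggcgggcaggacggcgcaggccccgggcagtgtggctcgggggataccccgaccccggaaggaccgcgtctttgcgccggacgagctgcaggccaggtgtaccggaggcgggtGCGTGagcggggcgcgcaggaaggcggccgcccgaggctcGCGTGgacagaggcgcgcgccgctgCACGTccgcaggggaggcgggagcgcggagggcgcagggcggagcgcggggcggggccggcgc
Bnip3, chr7:138909507-138909756, minus strand: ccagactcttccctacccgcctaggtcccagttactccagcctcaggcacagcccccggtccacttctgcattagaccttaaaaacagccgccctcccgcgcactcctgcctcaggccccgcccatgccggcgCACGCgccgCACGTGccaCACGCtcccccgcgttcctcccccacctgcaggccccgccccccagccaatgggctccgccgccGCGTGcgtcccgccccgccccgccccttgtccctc
Vegfa, chr17:46032378-46032627, minus strand: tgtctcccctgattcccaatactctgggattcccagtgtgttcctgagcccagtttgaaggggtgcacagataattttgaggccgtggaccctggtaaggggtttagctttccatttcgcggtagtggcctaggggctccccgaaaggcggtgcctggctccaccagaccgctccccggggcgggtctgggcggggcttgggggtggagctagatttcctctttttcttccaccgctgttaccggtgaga
Fam162a, chr16:36071562-36071811, minus strand: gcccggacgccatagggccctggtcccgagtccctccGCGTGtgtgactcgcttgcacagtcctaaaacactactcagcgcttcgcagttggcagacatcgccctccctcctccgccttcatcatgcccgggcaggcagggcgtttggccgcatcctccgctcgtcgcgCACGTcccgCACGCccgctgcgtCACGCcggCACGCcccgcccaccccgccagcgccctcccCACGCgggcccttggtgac
Ankrd37, Higd1a, Ero1l, Bnip3 and Fam162a held 4, 2, 3, 5 and 6 copies of the core, and Hilpda, Vegfa and Car12 held none in this window. The Bnip3 window contains CACGTG, which reads as ACGTG on both strands and so counts as 2 of its 5 copies. CACGTG is also the E-box core of bHLH factors. The Ankrd37 window lies 5857 bases inside the outermost annotated start of that gene, at the start of a shorter transcript. Of the 23 hypoxia targets with a promoter in the table, 20 (87.0%) held at least 1 copy on either strand, against 38.6% of all 32851 promoters and 44.0% of the 21262 of protein-coding genes. ACGTG was found in 56.5% of the targets' promoters against 17.8% of those of protein-coding genes, GCGTG in 73.9% against 33.8%, and CACGTG in 13.0% against 6.63%. The targets' promoters were also richer in G and C, at a mean of 64.9% against 55.5% of those of protein-coding genes. A match is a description of the letters, not a binding site, and a window without one says nothing of more distant elements.

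Dynamic suspension held the highest level of most hypoxia targets. It was the top library for 22 of the 30 measured targets, against 18.6% of all 12848 genes measured over the 5 libraries. The labelled overexpression was highest for 4 (18.7% of all genes), namely P4ha1, Plod2, Car9 and Ddit4. The other tops were shControl for Mgarp and Car12 (21.3% of all genes), conventional 3D for Lox (15.4%) and the labelled knockdown for Angptl4 (26.1%). At the other end, the labelled knockdown was lowest for 11 targets (25.5% of all genes), shControl for 8 (20.9%), conventional 3D for 7 (13.5%), dynamic suspension for 3 (19.9%) and the labelled overexpression for 1 (20.1%), where Lox, at 0 in both labelled lines, is counted for the knockdown. Because 3 libraries are estimated counts, the ranking was repeated among them, and dynamic suspension was then highest for 23 targets, against 29.3% of all genes. Ankrd37 reached the mean of 1 CPM over the 5 libraries through dynamic suspension alone, and Angptl4 through the labelled knockdown alone. Their top library over the 5 was thus fixed by that minimum, as was that of Ankrd37 among the 3.

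**Figure D1:**
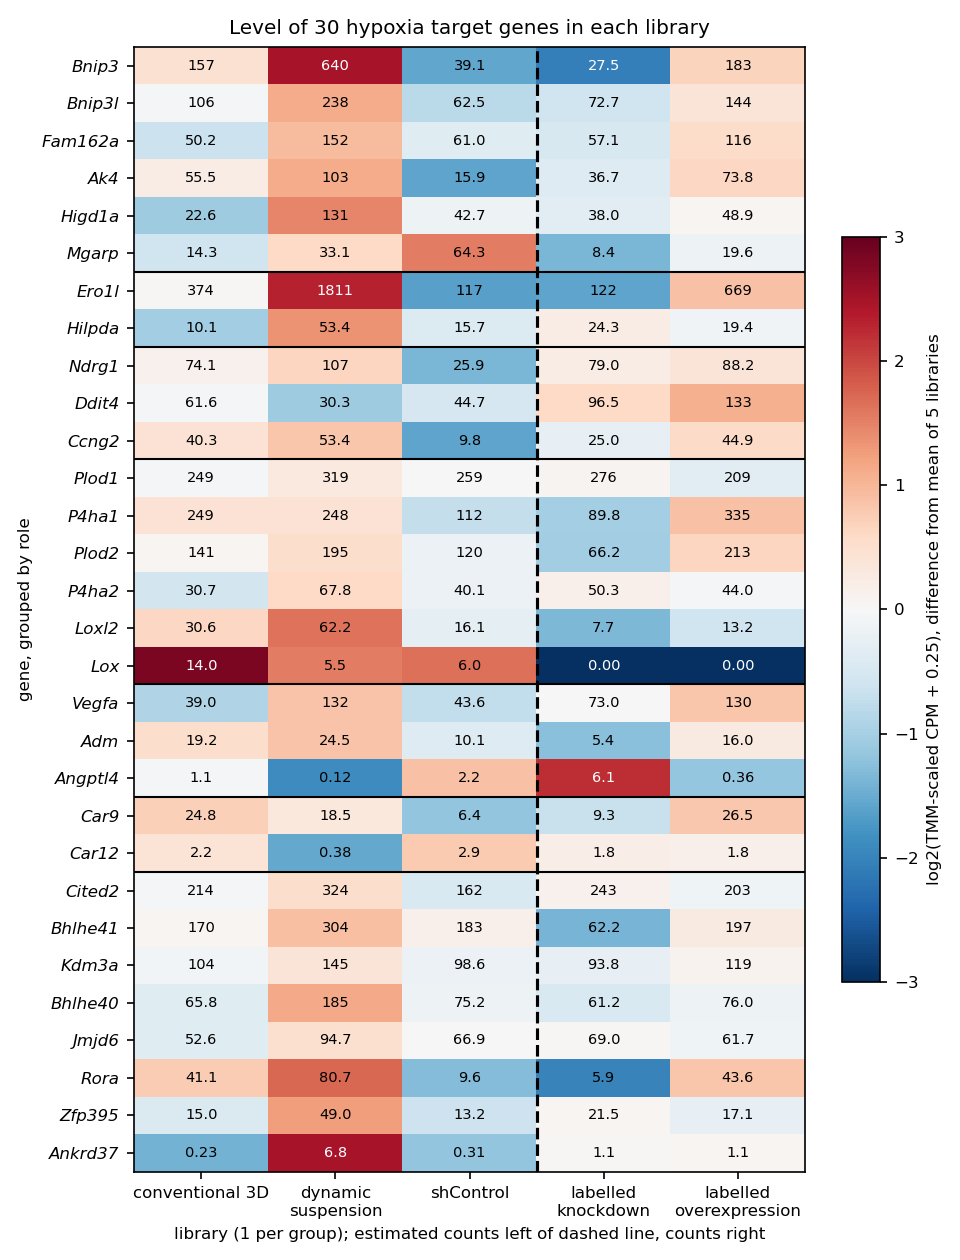
Levels of the hypoxia targets in the 5 libraries, with genes in rows grouped by role, libraries in columns and each cell printed with its TMM-scaled CPM; the colour is the difference of the log2 level from the gene's mean over the libraries. Dynamic suspension holds the highest level of 22 of the 30 measured genes, among them Ero1l at 1811 CPM, and Lox is at 0 in both labelled lines.

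Between dynamic suspension and conventional 3D, the comparison of the study's culture method with the usual one, dynamic suspension was higher for 13 of 29 measured targets (44.8%, against 6.47% of 12875 genes) and lower for 3 (10.3%, against 7.68%). These libraries are called the culture pair below, and the labelled overexpression and knockdown the labelled pair. The higher genes were Ankrd37, Higd1a, Hilpda, Ero1l, Bnip3, Vegfa, Zfp395, Fam162a, Bhlhe40, Mgarp, Bnip3l, P4ha2 and Loxl2. The lower genes were Car12, Lox and Ddit4. The median log2 ratio of the targets was 0.89, against -0.02 over all genes, and 24 of 29 lay above 0. By role, 5 of 6 mitochondrial genes and both genes of endoplasmic reticulum oxidation and lipid droplets were higher. So were 3 of 8 genes under transcription and chromatin, 2 of 6 collagen-modifying enzymes (1 lower) and 1 of 2 measured secreted factors. Of the growth brakes 0 of 3 were higher (1 lower), and of the carbonic anhydrases 0 of 2 (1 lower). Differences between roles were not tested, and of the mitochondrial genes Mgarp alone is of own sequence. These counts came with Hif1a lower, not higher, in dynamic suspension, at a log2 ratio of -0.47 (-0.50 to -0.45). Several of the higher genes share sequence with other annotated genes, and estimated counts can divide or duplicate such reads. Of the 19 measured targets with under 5% of their 50-base stretches in another gene, 7 were higher (36.8%, against 6.38% of such genes) and 3 lower (15.8%, against 8.39%). Of the 9 that share none and overlap no other gene, Hilpda and Mgarp were higher and Ddit4 and Car12 lower (22.2% each way, against 7.11% and 8.79% of genes of own sequence).

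**Figure D2:**
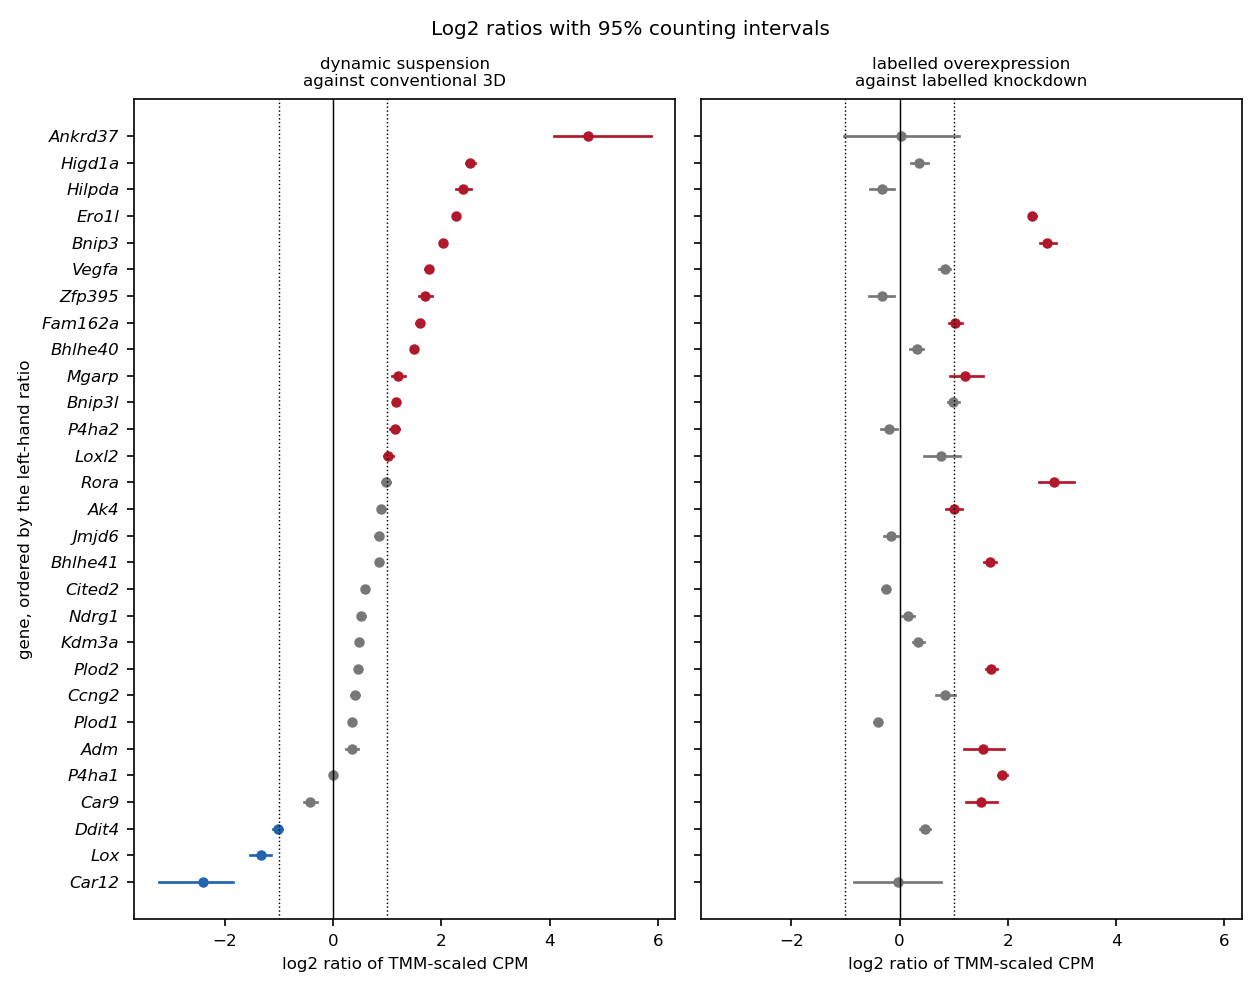
Log2 ratios of the hypoxia targets (points) with their exact 95% counting intervals (bars) for dynamic suspension against conventional 3D, left, and the labelled overexpression against the labelled knockdown, right; red is higher and blue lower beyond 2-fold, grey is neither, and dotted lines mark 2-fold. Ankrd37 leads on the left at 4.70 and Rora on the right at 2.86, and genes below a mean of 1 CPM (Stc2 on both sides, Angptl4 on the left, Lox on the right) have no point; Angptl4, at -3.69 on the right, is left out with its row.

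Bnip3 and Bnip3l are paired receptors that recruit the autophagy machinery to mitochondria. Bnip3 (ENSMUSG00000078566, chr7:138890836-138909519) stood at 157 CPM in conventional 3D, 640 in dynamic suspension, 39.1 in shControl, 27.5 in the labelled knockdown and 183 in the labelled overexpression. Dynamic suspension was far above every other library, and the labelled knockdown and shControl were the lowest. The log2 ratio was 2.03 (1.998 to 2.07) in the culture pair and 2.73 (2.59 to 2.88) in the labelled pair. Bnip3l followed the same order at the top with a smaller range, at 106, 238, 62.5, 72.7 and 144 CPM in the same order of libraries. Per kilobase of exon, Bnip3 was 4.59 times Bnip3l in dynamic suspension and 2.52 times in conventional 3D, but 1.06 times in shControl and 0.644 times in the labelled knockdown. Both share sequence with other genes: 47.2% of the 50-base stretches of Bnip3 and 20.8% of those of Bnip3l occur elsewhere. The main sharing gene of Bnip3, AC160336.1, was at 11.3 CPM in dynamic suspension and 3.14 in conventional 3D, and Bnip3l-ps was at 26.8 and 8.96.

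Higd1a, a small inner-membrane protein that associates with the respiratory chain, was at 22.6 CPM in conventional 3D, 131 in dynamic suspension, 42.7 in shControl, 38.0 in the labelled knockdown and 48.9 in the labelled overexpression. It was high in dynamic suspension alone among the 5, with a log2 ratio of 2.53 (2.45 to 2.63) against conventional 3D, and it did not pass 2-fold between the labelled lines (0.36, interval 0.21 to 0.52). Fam162a, a mitochondrial protein linked to hypoxic cell death, was at 50.2, 152, 61.03, 57.1 and 116 CPM in the same order. It was higher in both pairs, at 1.60 (1.54 to 1.66) and 1.03 (0.91 to 1.15). Ak4, a mitochondrial nucleotide kinase, was at 55.5, 103, 15.9, 36.7 and 73.8 CPM. Its ratio between dynamic suspension and conventional 3D was 0.89 (0.83 to 0.96), short of 2-fold, and between the labelled lines 1.01 (0.86 to 1.15), just past it. Of their 50-base stretches, 24.4% in Higd1a, 13.3% in Fam162a and 10.2% in Ak4 occur in other genes.

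Mgarp, which takes part in mitochondrial transport, departed from the other mitochondrial genes. It was at 14.3 CPM in conventional 3D, 33.1 in dynamic suspension, 64.3 in shControl, 8.4 in the labelled knockdown and 19.6 in the labelled overexpression. The highest library was shControl, which was the lowest for Ak4. The ratio was 1.20 (1.09 to 1.33) in the culture pair and 1.21 (0.93 to 1.53) in the labelled pair. Conventional 3D and both labelled lines were lower than shControl, at log2 ratios of -2.16, -2.93 and -1.71. Mgarp shares no sequence with another gene.

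Ero1l, the oxidase that passes electrons from protein disulfide isomerase to oxygen during disulfide formation, had the highest mean level per length of the targets, through its level in dynamic suspension. It (ENSMUSG00000021831, chr14:45283087-45318771, named Ero1a in RefSeq) was at 374 CPM in conventional 3D, 1811 in dynamic suspension, 117 in shControl, 122 in the labelled knockdown and 669 in the labelled overexpression. The 5 libraries fell in 3 tiers, with shControl and the labelled knockdown together at the bottom. The ratio was 2.28 (2.25 to 2.30) between dynamic suspension and conventional 3D and 2.45 (2.38 to 2.53) between the labelled lines. Averaged over the 5 libraries and divided by exon length, Ero1l came to 117 CPM per kilobase, followed by Fam162a at 103, Cited2 at 93.3 and Bnip3 at 92.4. Dynamic suspension carried that mean, at 343 CPM per kilobase, and in each of the other 4 libraries Cited2 or Fam162a was above Ero1l, as in shControl, where Fam162a was at 71.8 and Ero1l at 22.2. Hilpda, which coats lipid droplets and inhibits adipose triglyceride lipase, was at 10.1, 53.4, 15.7, 24.3 and 19.4 CPM, with 1 high library. The ratio was 2.40 (2.28 to 2.54) in the culture pair and -0.33 (-0.55 to -0.11) in the labelled pair, and Hilpda shares no sequence with another gene.

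Of the growth brakes, 1 was lower and 2 stayed within 2-fold in the culture pair. Ddit4, an inhibitor of mTORC1, was at 61.6 CPM in conventional 3D, 30.3 in dynamic suspension, 44.7 in shControl, 96.5 in the labelled knockdown and 133 in the labelled overexpression. It was lowest where most targets were highest, with a ratio of -1.02 (-1.11 to -0.94) between dynamic suspension and conventional 3D that is just past 2-fold and reads -0.835 with unscaled totals and -0.96 with TMM factors from genes of own sequence. Ndrg1, a stress-induced suppressor of metastasis, was at 74.1, 107, 25.9, 79.0 and 88.2 CPM. Ccng2, an atypical cyclin that slows the cell cycle, was at 40.3, 53.4, 9.82, 25 and 44.9 CPM. In both, shControl was the lowest of the 5 libraries and dynamic suspension the highest. Neither passed 2-fold between dynamic suspension and conventional 3D (0.53 and 0.41) or between the labelled lines (0.16 and 0.84).

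Among the collagen-modifying enzymes, the paired isoforms ranked the libraries differently. P4ha1 and P4ha2 are the alternative catalytic subunits of collagen prolyl 4-hydroxylase. P4ha1 was at 249 CPM in conventional 3D, 248 in dynamic suspension, 112 in shControl, 89.8 in the labelled knockdown and 335 in the labelled overexpression. The libraries of the culture pair were level (-0.01, interval -0.04 to 0.03), and the labelled pair was separated by 1.90 (1.82 to 1.99). P4ha2 showed the reverse, at 30.7, 67.8, 40.1, 50.3 and 44.0 CPM, with 1.14 (1.06 to 1.23) in the culture pair and -0.19 (-0.34 to -0.04) in the labelled pair. P4ha1 per kilobase was 12.3 times P4ha2 in conventional 3D, 11.6 times in the labelled overexpression, 5.55 times in dynamic suspension and 2.71 times in the labelled knockdown.

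Plod1 and Plod2 are lysyl hydroxylases, of which Plod2 acts on the collagen telopeptides. Plod1 varied least of all targets, at 249, 319, 259, 276 and 209 CPM. Plod2 was at 141, 195, 120.0, 66.2 and 213 CPM, lowest in the labelled knockdown, with 1.69 (1.59 to 1.79) between the labelled lines and 0.47 (0.42 to 0.51) in the culture pair. The labelled overexpression was the 1 library in which Plod2 per kilobase exceeded Plod1, the ratio of Plod1 to Plod2 being 0.780 there and 3.32 in the labelled knockdown.

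Lox and Loxl2 are copper-dependent oxidases that crosslink collagen. Lox (chr18:52516067-52529867) was at 14.0 CPM in conventional 3D, 5.54 in dynamic suspension, 6.01 in shControl and 0 in both labelled lines. Its exons overlap those of AC161119.1, whose reads cannot be told apart where counting ignores strand. Conventional 3D was higher than dynamic suspension, whose log2 ratio was -1.33 (-1.52 to -1.15). Measured against a floor of 3 counts per library, shControl was at least 30.5-fold higher than the labelled knockdown and at least 33.6-fold higher than the labelled overexpression. These bounds set estimated counts against plain counts, so the processing and the condition cannot be told apart in them. In both comparisons Lox reached the 1 CPM minimum through shControl alone, so it could only be called lower. Loxl2 was at 30.6, 62.2, 16.1, 7.68 and 13.2 CPM, highest in dynamic suspension at 1.02 (0.94 to 1.11) above conventional 3D. It shares 45.02% of its stretches with other genes, mainly the pseudogene Gm21451, which was at 8.08, 18.3, 3.67, 0 and 0.0595 CPM in the same order.

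Lox is also a fibroblast gene, so the fibroblast markers are given beside it. Their summed level was 129 CPM in conventional 3D, 37.6 in dynamic suspension, 38.4 in shControl, 35.6 in the labelled knockdown and 15.8 in the labelled overexpression. Pdgfrb ran against this order, at 7.48, 11.2, 5.91, 24.6 and 12.6 CPM, and made up most of the sum in both labelled lines. Of the 8 markers, none was at 0 in the first 3 libraries, and 3 and 4 were at 0 in the labelled lines, Dcn, Lum and Thy1 in both and Col1a2 in the labelled overexpression. Between dynamic suspension and conventional 3D, 6 of 8 were lower, and Col3a1 was at 8.23 against 45.3 CPM. Their part in the Lox values was not tested. Of the 6 endothelial markers, Vwf was at 10.7, 1.04, 3.08, 2.17 and 4.88 CPM in the usual order of libraries, highest in conventional 3D like Lox. Pecam1 and Kdr were below 1 CPM throughout, and Cdh5, Tek and Emcn were at 0 in every library. The immune markers summed to 0.853 to 15.8 CPM, mostly Cd68.

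**Figure D3:**
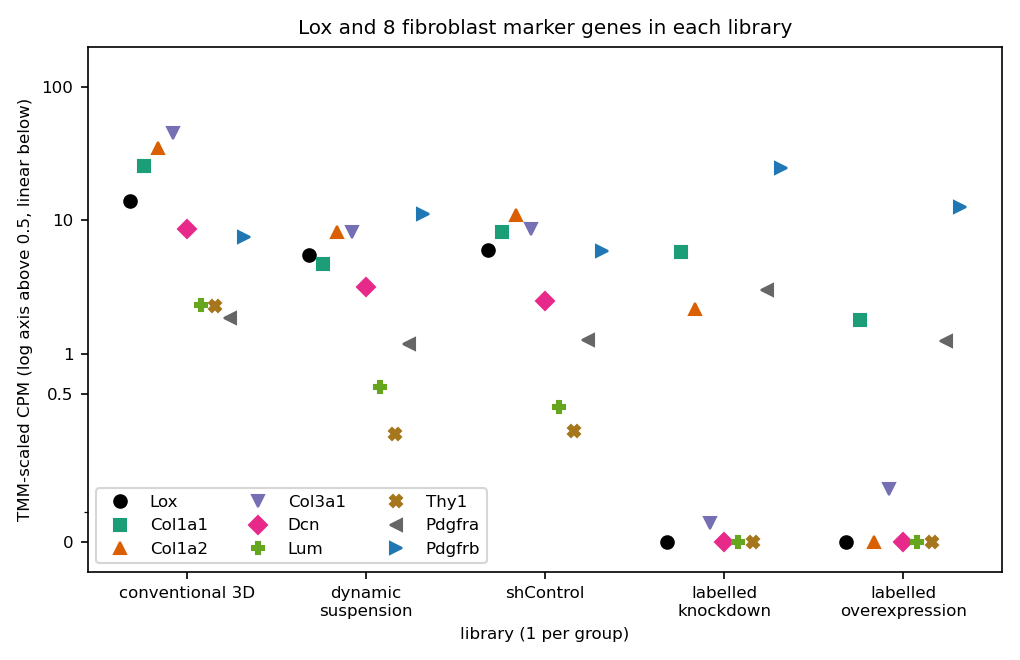
Levels (TMM-scaled CPM, on an axis that is logarithmic above 0.5 and linear below) of Lox and the 8 fibroblast markers, 1 point per library, in the 5 libraries. Lox is at 14.0 CPM in conventional 3D and 0 in both labelled lines, and Col3a1 is at 45.3 CPM in conventional 3D against at most 8.70 in the other libraries.

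Of the secreted factors, Vegfa, the main growth factor for vessels, was at 39.0 CPM in conventional 3D, 132 in dynamic suspension, 43.6 in shControl, 73.0 in the labelled knockdown and 130 in the labelled overexpression. Dynamic suspension and the labelled overexpression were highest, with counting intervals of 129.5 to 135.4 and 124.5 to 135.5 CPM. These libraries are of different kinds of column, so the intervals are not directly comparable. The ratio was 1.76 (1.69 to 1.83) in the culture pair and 0.83 (0.73 to 0.94) in the labelled pair. Adm, the vasodilator peptide adrenomedullin, was at 19.2, 24.5, 10.1, 5.45 and 16.02 CPM, and passed 2-fold between the labelled lines (1.53, interval 1.20 to 1.93) but not in the culture pair (0.35, interval 0.24 to 0.47).

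Angptl4, a secreted inhibitor of lipoprotein lipase, was at 1.09 CPM in conventional 3D, 0.116 in dynamic suspension, 2.24 in shControl, 6.10 in the labelled knockdown and 0.357 in the labelled overexpression. The labelled knockdown was highest and dynamic suspension lowest. The labelled overexpression was lower than the labelled knockdown by a log2 ratio of -3.69 (-5.58 to -2.92). Dynamic suspension was lower than shControl by -3.93 (-5.61 to -3.19). In both, and in the labelled overexpression against shControl, Angptl4 reached the 1 CPM minimum through the higher library alone. It could thus only be called lower there. The culture pair fell short of the 1 CPM minimum. Stc2, a secreted glycoprotein, was found in dynamic suspension alone, with a value of 9 (0.149 CPM). This is at least 2.64-fold above the 3-count floor of conventional 3D and 3.06-fold above that of shControl. Those floors take estimated counts as counts, so the fold values hold only if these equal the fragments sequenced. In the labelled lines the 3-count floor, 0.179 to 0.197 CPM, lies above the level in dynamic suspension, so a similar level would fall below it there.

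The carbonic anhydrases Car9 and Car12 hydrate carbon dioxide at the cell surface and set the pH around tumour cells. Car9 was at 24.8 CPM in conventional 3D, 18.5 in dynamic suspension, 6.41 in shControl, 9.32 in the labelled knockdown and 26.5 in the labelled overexpression. It was one of the 5 targets below 0 in the culture pair, at -0.42 (-0.54 to -0.30), though not beyond 2-fold, and it was higher in the labelled overexpression than in the labelled knockdown by 1.495 (1.23 to 1.79). Car12 was near the detection minimum at 2.16, 0.381, 2.87, 1.84 and 1.79 CPM, lowest in dynamic suspension, with -2.40 (-3.22 to -1.85) against conventional 3D. It reached the 1 CPM minimum of the culture pair, and of dynamic suspension against shControl, through the higher library alone. Car12 could thus only be called lower there.

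The genes grouped under transcription and chromatin all had a ratio above 0 in the culture pair, and 3 of 8 passed 2-fold. Ankrd37, an ankyrin-repeat protein, had the largest log2 ratio of the culture pair, at 0.226 CPM (12 counts) in conventional 3D, 6.75 in dynamic suspension, 0.308 in shControl, 1.05 in the labelled knockdown and 1.07 in the labelled overexpression. Its log2 ratio was 4.70 (4.08 to 5.87) in the culture pair and 0.03 (-1.03 to 1.10) in the labelled pair. Ankrd37 reached the 1 CPM minimum of the culture pair, and of dynamic suspension against shControl, through dynamic suspension alone. It could thus pass in 1 direction only there. Ankrd37 shares 17.0% of its stretches with other genes, and its main sharing gene, Lrp2bp, was at 0 in dynamic suspension and 0.658 CPM in conventional 3D. Zfp395, a zinc finger protein, was at 15.03, 49.0, 13.2, 21.5 and 17.1 CPM, with 1.70 (1.59 to 1.82) in the culture pair and -0.33 (-0.56 to -0.10) in the labelled pair.

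Bhlhe40 and Bhlhe41 are paired E-box repressors that feed into the circadian clock. Bhlhe40 was at 65.8, 185, 75.2, 61.2 and 76.0 CPM, with dynamic suspension alone set apart, at 1.49 (1.44 to 1.55) above conventional 3D. Bhlhe41 was at 170, 304, 183, 62.2 and 197 CPM, with the labelled knockdown alone set apart at the bottom. It passed 2-fold between the labelled lines (1.67, interval 1.56 to 1.77) but not in the culture pair (0.84). Bhlhe41 shares 16.4% of its stretches with other genes, mainly Gm43909, which was at 2.41, 6.74, 3.69, 0.0656 and 3.16 CPM in the same order. Rora, a nuclear receptor that activates clock genes, was at 41.1, 80.7, 9.64, 5.91 and 43.6 CPM. Its ratio was 2.86 (2.57 to 3.22) between the labelled lines and 0.97 (0.90 to 1.05) in the culture pair, just short of 2-fold. Cited2, which competes with HIF-1α for the coactivators Ep300 and Crebbp, ranged about 2-fold, at 214, 324, 162, 243 and 203 CPM. The histone demethylase Kdm3a ranged from 93.8 to 145 CPM and the hydroxylase Jmjd6 from 52.6 to 94.7, both highest in dynamic suspension, and neither passed 2-fold in any of the 6 comparisons.

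The labelled overexpression against the labelled knockdown was led by Rora, Bnip3 and Ero1l. Here 11 of 29 measured targets were higher in the labelled overexpression (37.9%, against 17.5% of 12305 genes) and 1 was lower (3.45%, against 14.8%). The higher genes were Rora, Bnip3, Ero1l, P4ha1, Plod2, Bhlhe41, Adm, Car9, Mgarp, Fam162a and Ak4, and the lower one was Angptl4. The targets' median was 0.77 and that of all genes -0.03. Hif1a itself was higher in the labelled overexpression by 2.01 (1.93 to 2.10). Of the 19 measured targets with under 5% shared sequence, 6 were higher (31.6%, against 18.1% of such genes) and 1 lower (5.26%, against 13.7%). Of the 10 of own sequence, 3 were higher (P4ha1, Adm and Mgarp), against 17.8% of genes of own sequence, and 1 lower, against 13.6%. Ak4 and Bnip3l lay just inside and just outside the 2-fold line, at 1.01 and 0.99, and Ak4 read 0.98 with DESeq2 size factors.

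The culture pair and the labelled pair have no library in common, so their calls can be set side by side. Bnip3, Ero1l, Fam162a and Mgarp, 4 of the 28 targets measured in both, were higher in both, against 1.47% of 11886 genes. No target was higher in one and lower in the other, against 1.15% and 2.26% of all genes in the 2 opposite directions. Angptl4, the only target lower in the labelled pair, was not measured in the culture pair. Lox, lower in the culture pair, was not measured in the labelled pair. Few targets could thus have been called in opposite directions, and no conclusion is drawn from their absence. The remaining 9 genes higher in dynamic suspension, Ankrd37, Higd1a, Hilpda, Vegfa, Zfp395, Bhlhe40, Bnip3l, P4ha2 and Loxl2, lay between -0.33 and 0.99 in the labelled pair. Ratios in the culture pair of the 7 genes higher in the labelled pair alone (Rora, P4ha1, Plod2, Bhlhe41, Adm, Car9 and Ak4) ranged from -0.42 to 0.97.

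Against shControl, the first 3 libraries being of one kind, dynamic suspension was higher for 19 of 30 measured targets (63.3%, against 13.8% of 12940 genes) and lower for 2, Angptl4 and Car12 (6.67%, against 14.9%). The targets' median was 1.31 and that of all genes -0.03. Bnip3 led after Ankrd37, at 4.03 (3.98 to 4.09) and 4.31 (3.79 to 5.20), followed by Ero1l at 3.95, Rora at 3.06 and Ak4 at 2.69. Cited2 sat on the line at 1.00 and read 0.94 with unscaled totals. Of the 20 targets with under 5% shared sequence 11 were higher (55.0%, against 14.2% of such genes) and 2 lower (10.0%, against 13.4%). The 2 growth brakes that stayed within 2-fold in the culture pair, Ccng2 (2.44) and Ndrg1 (2.04), were both higher here.

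Conventional 3D against shControl gave 9 higher of 29 (31.03%, against 14.1% of 12929 genes) and 2 lower, Mgarp and Angptl4 (6.90%, against 14.9%). The higher genes were Rora, Ccng2, Bnip3, Car9, Ak4, Ero1l, Ndrg1, Lox and P4ha1, and Hilpda, Higd1a, Vegfa, Bhlhe40 and P4ha2 were all below 0, between -0.92 and -0.16. The median of the targets was 0.23, against -0.01 over all genes. Of the 20 with under 5% shared sequence 6 were higher (30%, against 15.4% of such genes) and 2 lower (10.0%, against 12.7%). P4ha1 (1.15) and Lox (1.21) read 0.90 and 0.96 with unscaled totals, and Angptl4 (-1.02) read -0.996 with DESeq2 size factors. Both comparisons use shControl, against which Hif1a stood at 2.67 in dynamic suspension and 3.14 in conventional 3D.

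The labelled lines against shControl compare different kinds of column. The labelled overexpression was higher for 11 of 29 targets (37.9%, against 16.1% of 12881 genes) and lower for 3, Lox, Angptl4 and Mgarp (10.3%, against 20.1%). The leading genes were Ero1l at 2.51, Bnip3 at 2.22, Ak4 at 2.21, Ccng2 at 2.19 and Rora at 2.17, and the median was 0.37, against -0.02 over all genes. The labelled knockdown was higher for 5 of 29 (17.2%, against 8.04% of 12639 genes), Ndrg1 at 1.61, Angptl4 at 1.42, Ccng2 at 1.34, Ak4 at 1.20 and Ddit4 at 1.11. It was lower for 4 (13.8%, against 15.6%), Lox, Mgarp, Bhlhe41 and Loxl2. Its median was 0.04, against 0.01 over all genes. Of the 20 targets with under 5% shared sequence, 7 were higher in the labelled overexpression (35%, against 18.9% of such genes). In the labelled knockdown 3 were higher (15%, against 9.5%). Lower were 3 of these 20 in the labelled overexpression (against 11.7% of such genes) and 2 in the labelled knockdown (against 8.03%). The share of lower targets was thus below that of all genes, but not below it among genes with under 5% shared sequence. All 3 growth brakes were higher in both labelled lines than in shControl, though Ddit4 read 0.92 in the labelled knockdown with TMM factors from genes of own sequence.

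**Figure D4:**
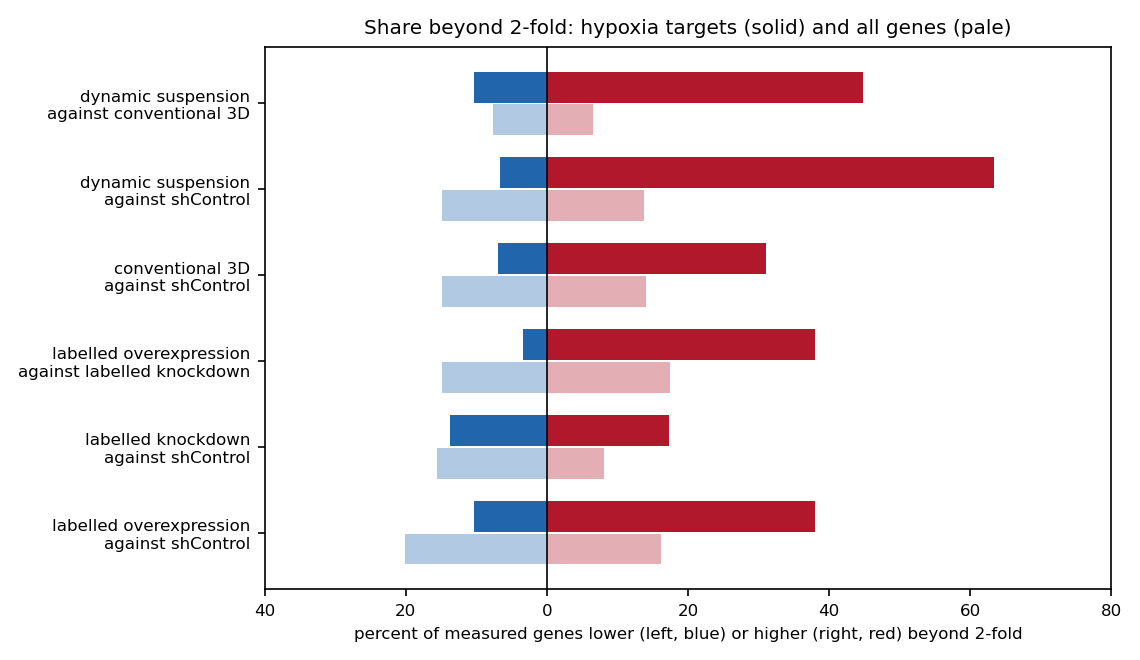
Percent of measured hypoxia targets (solid bars) and of all measured genes (pale bars) that were higher (right) or lower (left) beyond 2-fold in each of the 6 comparisons. The share of higher targets is 63.3% in dynamic suspension against shControl and 44.8% against conventional 3D, with 13.8% and 6.47% of all genes.

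The pathway around these targets was described from lists chosen by name. Of the HIF machinery, the subunits and oxygen sensors, 2 of 14 measured genes were higher and none lower in the culture pair, where 6.47% and 7.68% of all genes were. These were the oxygen sensor Egln1, at 99.6 CPM in conventional 3D, 299 in dynamic suspension, 50.0 in shControl, 92.3 in the labelled knockdown and 141 in the labelled overexpression, and Vhl, at 49.4, 112, 41.9, 54.7 and 50.0 CPM. Egln1 is itself a HIF target, and its 2 highest libraries were dynamic suspension and the labelled overexpression, those of Bnip3 and Ero1l. Egln3, the other inducible sensor, was at 9.96, 9.45, 4.30, 5.51 and 11.6 CPM, and was higher between the labelled lines by 1.05 (0.69 to 1.45). Neither Arnt nor Epas1 passed 2-fold in either pair, with Arnt at 69.2, 77.8, 58.0, 60.9 and 100.03 CPM and Epas1, which encodes HIF-2α, at 24.1, 13.7, 13.1, 19.8 and 30.7 CPM. Between the labelled lines 2 of 15 machinery genes were higher, Hif1a and Egln3, and 1 was lower, shares of 13.3% and 6.67% that lie below the 17.5% and 14.8% of all genes.

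Of the glycolytic HIF targets, 4 of 22 were higher (18.2%, against 6.47% of all genes) and 1 lower (4.55%, against 7.68%) in the culture pair, with a median log2 ratio of 0.30. The highest were Gapdh at 1.70, a gene with many near-identical pseudogenes and so uncertain, and the glucose transporter Slc2a1 at 1.59, and the lowest the transporters Slc2a3 at -1.06 and Slc16a3 at -0.62. Against shControl, however, 15 of 22 were higher in dynamic suspension (median 1.45, with 13.8% of all genes higher) and 11 of 22 in conventional 3D (median 0.88, with 14.1%). Between the labelled lines 6 of 22 were higher (27.3%, against 17.5% of all genes) and none lower (against 14.8%), led by Eno2 at 3.46 and Aldoc at 3.12, with Ldha at -0.57 and Slc2a3 at -0.37 at the other end. The difference between these and the other targets was not tested.

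Ddit4 and Vegfa are also induced by the stress factor ATF4, so a list of 20 ATF4 and stress-response genes is set beside them. In the culture pair 8 of 20 were higher, against 6.47% of all genes, and none lower, against 7.68%, led by Ddit3 at 3.73 and Ppp1r15a at 2.44, with Phgdh at -0.70 and Slc7a11 at -0.60 lowest. Between the labelled lines none was higher (17.5% of all genes were) and 17 of 20 were lower (14.8% of all genes) in the labelled overexpression, where Vldlr was at -3.90 and Shmt2 at -3.53, and Nupr1 at 0.10 and Ddit3 at -0.32 were the highest. The list summed to 2421 CPM in conventional 3D, 2953 in dynamic suspension, 4294 in shControl, 8640 in the labelled knockdown and 2036 in the labelled overexpression. Ddit4 did not follow that sum: it was highest in the labelled overexpression, where the list was lowest, and lowest in dynamic suspension. The part of these genes in the values of Ddit4 and Vegfa was not tested.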

How the data were processed

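RNA from 5 pooled B16F10 cultures was sequenced as strand-specific poly(A) libraries (150-base read pairs), per the labels' protocols. The submitters' processing notes list the builds mm10 and GRCm38.p6 beside cutadapt, HISAT2 and StringTie. The counting program is not given in the sources used here. The deposited table holds whole-number counts per Ensembl gene for the labelled lines, and the other 3 deposited columns were read as estimated counts from their pattern of values (27.9 to 30.1% of values from 1 to 20 are multiples of 4, against 15.2 to 16.4%).

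Values were scaled to CPM with TMM factors over the 5 libraries (edgeR 4.0.16 in R 4.3.3), and log2 ratios took a prior count of 2. Intervals are exact conditional binomial (Clopper-Pearson) 95% intervals of the count ratio, and cover counting error only. They take estimated counts as counts, so they are too narrow where these exceed the fragments sequenced. The simulated data on which they were tested had counts at the same totals and could not show this. Genes of own sequence overlap no other exon and share no 50-base stretch (GENCODE annotation, GRCm38). The floor of 3 counts equals 0.0487 to 0.197 CPM. Alternatives were total counts, DESeq2 1.42.0 size factors, own-sequence and 2-library TMM, prior 0.5, minimum level, wider intervals and fewer members. All members are named, by role. Of the other lists, HIF genes and the 2 highest and 2 lowest ratios in the culture pair and the labelled pair are named. Members, lists and rules were chosen with earlier results of these data known. With 1 library per group no test between conditions was run.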

Additional observations from a re-analysis of the deposited data

How the results depend on the processing

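Each count of targets beyond 2-fold was recomputed under the alternatives: 100 of the 120 counts stayed within 1.5 times the reported one and 20 did not. With targets of own sequence alone, those higher numbered 2 for dynamic suspension against conventional 3D, 5 for dynamic suspension against shControl, 2 for conventional 3D against shControl, 3 for the labelled overexpression against the labelled knockdown, 3 for the labelled knockdown against shControl (1 lower) and 3 for the labelled overexpression against shControl. With under 5% shared sequence, an alternative chosen after seeing the data, they numbered 7, 11, 6, 6, 3 (2 lower) and 7 in the same order. Fewer genes are counted in both by construction. At a minimum of 10 CPM those lower fell to 1, 0, 1, 0 and 1 in the first 4 comparisons and the last. For conventional 3D against shControl, those lower were 1 with DESeq2 size factors and 1 with TMM factors from the compared libraries, also chosen after seeing the data. Its median read -0.019 with total counts, and that of the labelled knockdown against shControl -0.15 with own-sequence TMM factors. These scalings moved the median of all genes by -0.25 and -0.19.

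Total counts moved the median of all genes by 0.19 in dynamic suspension against conventional 3D, where 61.3% of called genes were then higher in place of 45.7%, and 17 targets in place of 13. That share went from 48.6 to 31.8% in conventional 3D against shControl, and with own-sequence TMM factors from 34.0 to 20.3% and from 44.5 to 34.3% for the labelled knockdown and the labelled overexpression against shControl. Ratios of single targets were recomputed in each comparison under each alternative scaling and the lower prior. A called ratio stayed the same if still at least 2-fold, and any other if within its counting interval. Of the recomputed ratios, 769 stayed the same, 96 moved, 10 lost their call and no called value reversed. Dividing the estimated counts by 4 before the interval changed no count of targets, and could not change those of the labelled pair, which holds no estimated counts. No paired analysis was possible because each group has 1 library. The level of Stc2 lies below the 3-count floor of the labelled lines, which is not on the scale of the estimated counts.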
